A study of Homo sapiens with 12 samples.

Results

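The genes described here are 9 genes of pulmonary surfactant and of the alveolar type II cell: SFTPB, SFTPC, SFTPD, NAPSA, ABCA3, LAMP3, LPCAT1, SLC34A2 and NKX2-1. They were chosen by symbol, and all 13 probes annotated to them are described, out of 47320 probes on the array and out of 20045 genes named by at least 1 probe. SFTPB, LAMP3, SLC34A2 and NKX2-1 have 2 probes each. Expression was read on 12 Illumina bead arrays of 1 chip, in 2 established human lines. A549 comes from a lung adenocarcinoma and is widely used as a stand-in for alveolar type II cells, while BEAS-2B cells are bronchial epithelial cells that were immortalised in culture. All cells were deprived of serum overnight. The controls then had medium alone, and the other groups had an extract of poultry dust at 0.25%, either for 1 h or for 6 h. There are 6 groups of 2 arrays, and the titles number the arrays 1 and 2. The labels state no time for the controls and do not say whether arrays of a group come from separate cultures, so the p-values cover the spread between arrays, which may be technical.

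Surfactant is a film of phospholipid and protein that lowers surface tension in the alveolus. Type II cells assemble it in lamellar bodies, storage organelles related to lysosomes, and secrete it. The homeodomain factor NKX2-1 drives transcription of many surfactant genes, and a type II cell that loses it stops making surfactant proteins.

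In these 2 lines most of the surfactant programme was at or near background. Of all probes, 39.5% in A549 and 38.1% in BEAS-2B were detected on both arrays of at least 1 group. SFTPC, the hydrophobic protein specific to type II cells, and NKX2-1 were detected on none of the 12 arrays. ABCA3, the lamellar body lipid transporter, was detected on all 6 A549 arrays and on 1 of 6 BEAS-2B arrays. In untreated cells its mean signal was at least 6.55-fold higher in A549 (at least 3.19-fold in the authors' normalized matrix). These bounds leave out the spread between arrays. LAMP3, a lamellar body membrane protein, went the other way: its probe ILMN_2170814 was detected on all 6 BEAS-2B arrays and on 1 of 6 A549 arrays. Its other probe, ILMN_2170813, was detected on all 12 arrays, and its difference between the untreated lines was not called. The 2 probes thus disagree on whether A549 expresses LAMP3. LPCAT1, the lipid-remodelling enzyme, was detected on all 12 arrays, and no difference between the lines was called. No change of a member with dust extract was called in either line.

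The start-site sequences of the members are shown because the array's own probe sequences are not used here, and because ABCA3 and LPCAT1, which were detected on all arrays of at least 1 line, have start sites of a like composition (a property chosen after their values were seen). From the RefSeq table of windows from 250 bases before to 50 bases after each start (GRCh38.p14), 11 windows of 7 member genes are described. The start site of SFTPC is not reported here. LAMP3, which was also detected on all arrays of at least 1 line, has no window in that table. The ABCA3 and LPCAT1 windows have a GC content of 78% and 80%. They hold 42 and 38 CpG dinucleotides, and 5.85% and 9.91% of all 35116 windows hold as many. The SFTPB window below and the SFTPD window have a GC content of 61.7% and 46.7% with 3 and 1 CpG, against a median of 14 over all windows. SLC34A2, which was not reliably detected, has 1 window with 38 CpG as well, so the count does not sort the members by detection. Each window is written from 5′ to 3′ on the strand of the gene, with CpG in capitals.
ABCA3 (chr16:2340679-2340978, minus strand): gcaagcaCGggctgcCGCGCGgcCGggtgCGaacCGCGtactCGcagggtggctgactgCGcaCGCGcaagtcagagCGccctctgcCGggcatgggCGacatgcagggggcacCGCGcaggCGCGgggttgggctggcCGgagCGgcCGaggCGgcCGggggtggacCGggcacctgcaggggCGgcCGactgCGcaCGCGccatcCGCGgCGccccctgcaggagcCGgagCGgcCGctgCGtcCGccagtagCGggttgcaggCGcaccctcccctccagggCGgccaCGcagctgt
LPCAT1 (chr5:1523911-1524210, minus strand): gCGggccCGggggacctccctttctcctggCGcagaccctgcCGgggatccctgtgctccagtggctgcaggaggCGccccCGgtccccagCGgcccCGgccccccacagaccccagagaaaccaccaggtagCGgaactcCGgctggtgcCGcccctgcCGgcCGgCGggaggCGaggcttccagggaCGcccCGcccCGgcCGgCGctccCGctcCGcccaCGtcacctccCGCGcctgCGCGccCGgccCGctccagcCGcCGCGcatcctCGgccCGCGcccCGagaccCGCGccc
SFTPB (chr2:85668150-85668449, minus strand): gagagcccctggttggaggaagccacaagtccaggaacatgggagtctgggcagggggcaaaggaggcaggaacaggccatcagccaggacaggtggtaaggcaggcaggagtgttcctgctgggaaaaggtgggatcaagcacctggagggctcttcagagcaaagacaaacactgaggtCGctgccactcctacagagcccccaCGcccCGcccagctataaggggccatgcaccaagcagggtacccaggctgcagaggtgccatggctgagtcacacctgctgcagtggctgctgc
SFTPD (chr10:79949056-79949355, minus strand): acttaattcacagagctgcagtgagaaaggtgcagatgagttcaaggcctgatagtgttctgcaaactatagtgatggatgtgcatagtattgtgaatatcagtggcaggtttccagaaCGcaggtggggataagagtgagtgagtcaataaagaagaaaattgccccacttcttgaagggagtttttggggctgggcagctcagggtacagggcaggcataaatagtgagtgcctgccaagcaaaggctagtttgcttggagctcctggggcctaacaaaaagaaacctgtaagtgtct

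The windows were also searched for CAAGTG and its reverse complement CACTTG, a core that homeodomains of the NKX2 family bind, on both strands. The motif stands in 3 of the 11 member windows and in 11.5% of all windows. It lies at position 43 after the start in NAPSA, at -66 in SLC34A2 and at -147 in NKX2-1 itself. These letters were not in the ABCA3, LPCAT1, SFTPB and SFTPD windows. A match is a description of the sequence and not a binding site. The stretches around the 3 matches follow, with the motif in capitals.
NAPSA (chr19:50369253-50369272, minus strand): tcaattcccctcCAAGTGca
SLC34A2 (chr4:25656386-25656415, plus strand): ctgccccccaccCAAGTGtgacttccacgt
NKX2-1 (chr14:36519686-36519715, minus strand): taaaaatcctgaCAAGTGaaacttaaaggt

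A probe counts as detected on an array at a detection p under 0.05, which means that few of the array's negative controls were brighter. In A549, 4 of the 13 member probes (30.8%) were detected on both arrays of at least 1 group, against 39.5% of all probes. In BEAS-2B the count was 3 of 13 (23.1%), against 38.1% of all probes. By gene, 4 of 9 members were detected in this sense in A549, namely ABCA3, LAMP3, LPCAT1 and SFTPD, and 2 of 9 in BEAS-2B, namely LAMP3 and LPCAT1. On all 6 arrays of a line, 3 probes were detected in A549 (ABCA3, LPCAT1 and LAMP3 ILMN_2170813) and 3 in BEAS-2B (LPCAT1 and both LAMP3 probes). On no array were 4 probes detected in A549 and 6 in BEAS-2B. The shares over all genes, and over all probes for detection on all arrays or on none, were not counted. The dimmest detected probe of an array lay between 5.18 and 5.32 on the log2 scale, so levels below that range have no order.

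**Figure D1:**
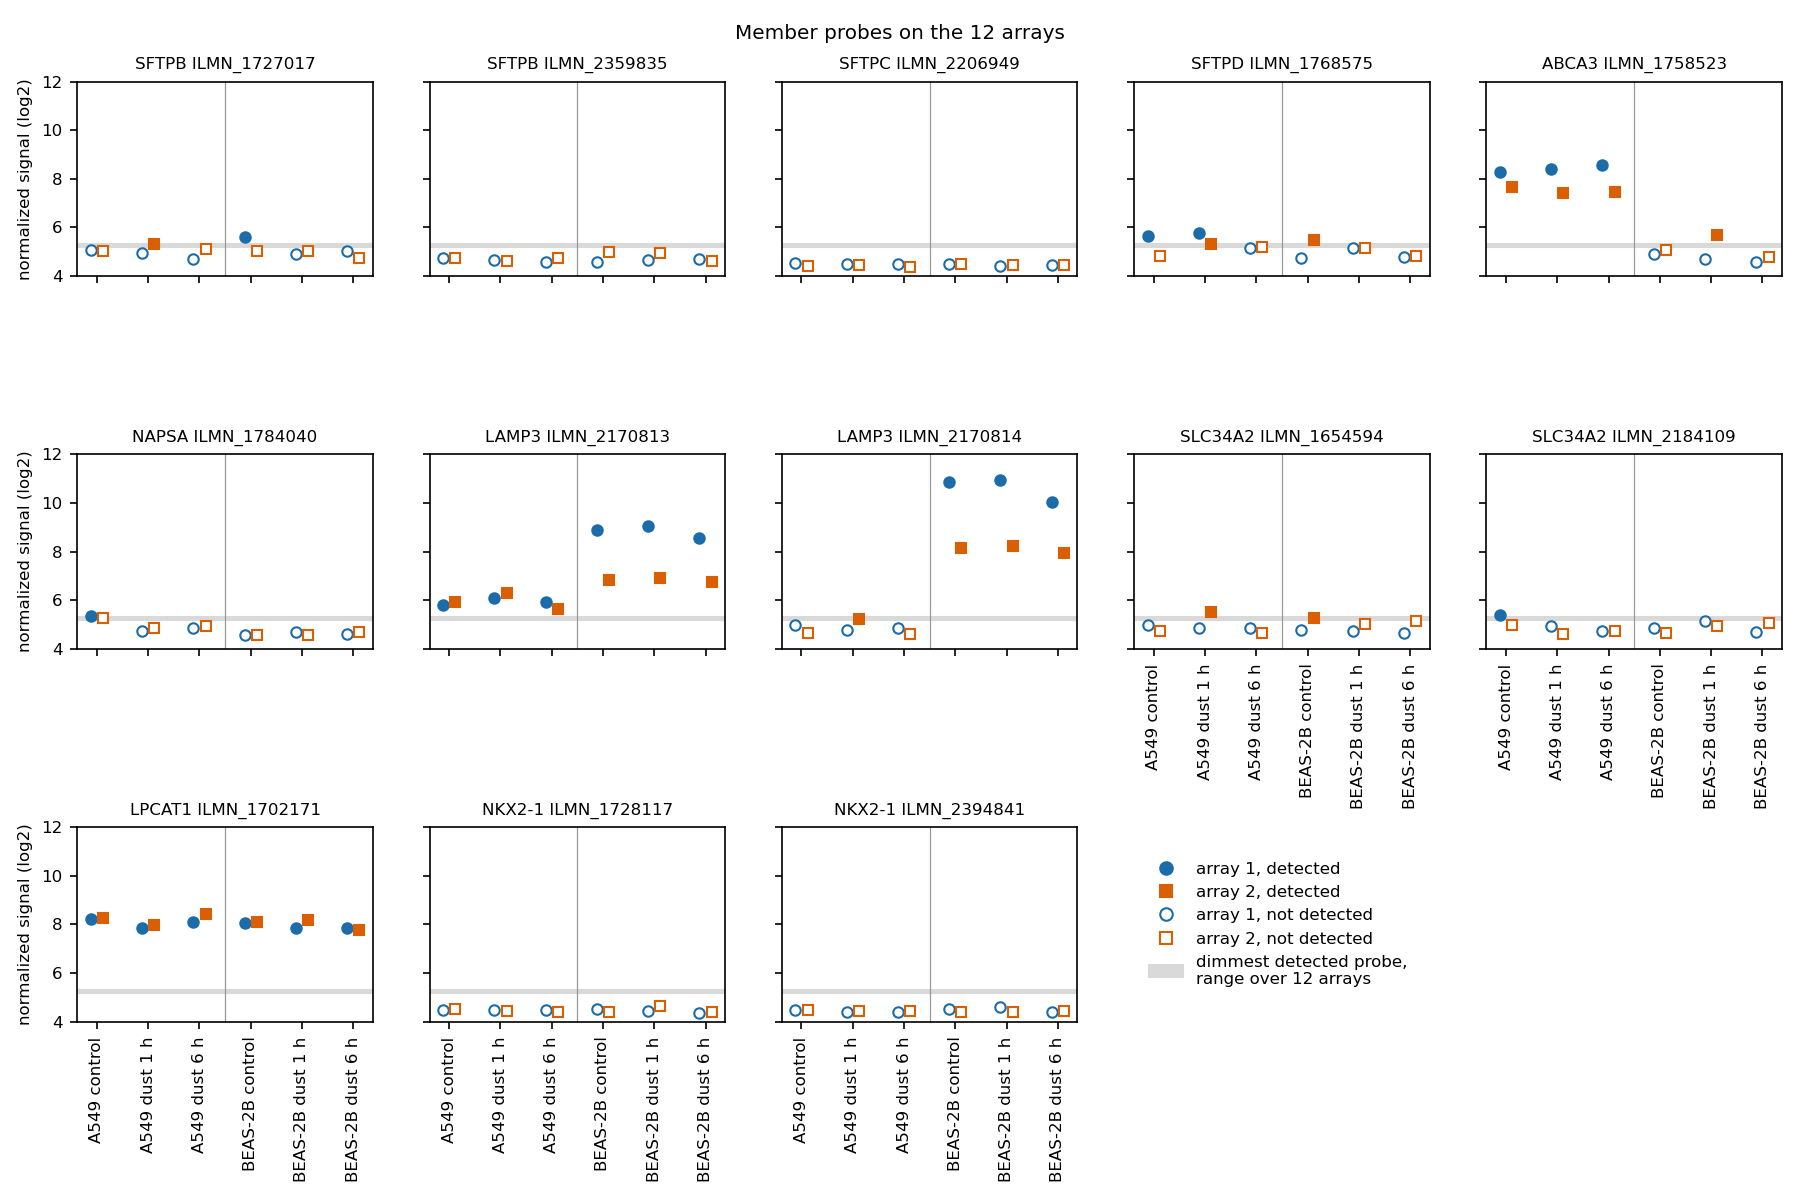
Normalized signal (log2) of the 13 member probes on each array, by group. Circles are arrays numbered 1, squares arrays numbered 2, filled symbols are detected, and the grey band is the range of the dimmest detected probe (5.18 to 5.32). ABCA3 stands above the band in A549, both LAMP3 probes in BEAS-2B, LAMP3 ILMN_2170813 also in A549, and LPCAT1 everywhere.

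The secreted surfactant proteins were close to background. SFTPC had an unnormalized signal between 51.1 and 70.7 on the A549 arrays and between 53.2 and 64.5 on the BEAS-2B arrays, with detection p-values from 0.7403 to 0.9857. All 12 arrays were therefore dimmer than most of their negative controls at this probe. SFTPB, the protein needed for lamellar body formation and for spreading of the film, has 2 probes. Its probe ILMN_2359835 was detected on none of the 12 arrays. Its probe ILMN_1727017 was detected on 1 array of each line, A549 at 1 h number 2 (5.31, log2) and BEAS-2B control number 1 (5.62), and neither partner array detected it. The 2 lines overlapped at both SFTPB probes.

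SFTPD, a soluble collectin of innate defence that other epithelia also make, came nearest to detection among the secreted proteins. Its log2 levels in A549 were 5.66 and 4.83 in the control arrays 1 and 2, 5.76 and 5.32 at 1 h, and 5.16 and 5.19 at 6 h. In BEAS-2B they were 4.73 and 5.48 in the controls, 5.14 and 5.15 at 1 h, and 4.77 and 4.84 at 6 h. It was detected on 3 A549 arrays (control number 1 and both at 1 h) and on 1 BEAS-2B array (control number 2), and the lines overlapped. NAPSA, the aspartic protease that helps to process the SFTPB precursor, was detected on A549 control number 1 alone, at 5.37. Its other A549 control array missed the threshold at a detection p of 0.05065, and its 4 A549 dust arrays lay between 4.74 and 4.92. No BEAS-2B array detected NAPSA, and its levels there ran from 4.56 to 4.71, below all 6 A549 arrays.

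NKX2-1 was at background in both lines. Its probe ILMN_1728117 had unnormalized signals from 53.2 to 68.4 in A549 and from 46.5 to 75.6 in BEAS-2B. Its probe ILMN_2394841 had signals from 59.4 to 66.3 in A549 and from 52.6 to 65.9 in BEAS-2B. Neither probe was detected on any array, which bounds the transcript only as far as these probes can see it. SLC34A2, the sodium-phosphate cotransporter of the type II cell surface, was detected by 1 of its 2 probes at a time: ILMN_1654594 on A549 at 1 h number 2 (5.51) and BEAS-2B control number 2 (5.26), and ILMN_2184109 on A549 control number 1 (5.39). No array detected both SLC34A2 probes.

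Of the 13 member probes, 7 passed the filter for testing (detection on at least 2 of 12 arrays), and 6 did not: ILMN_2359835 of SFTPB, ILMN_2184109 of SLC34A2, both NKX2-1 probes, and the SFTPC and NAPSA probes. The 7 were the probes of ABCA3, LPCAT1 and SFTPD, both LAMP3 probes, ILMN_1727017 of SFTPB and ILMN_1654594 of SLC34A2. The last 2 passed on 1 array of each line.

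The first comparison set untreated BEAS-2B against untreated A549. Of the 7 member probes, 2 were called, ABCA3 lower and LAMP3 ILMN_2170814 higher in BEAS-2B. Of all probes tested 22.4% were called here. The same comparison averaged over the 3 conditions called 3 of 7, those 2 and LAMP3 ILMN_2170813, where 42.8% of all probes were called. With the array number as a block across lines, 3 of 7 were called in both comparisons, where 26.0% and 46.0% of all probes were. The A549 arrays lie in the first and the BEAS-2B arrays in the second 6 sections of the chip, so line and chip position cannot be told apart.

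ABCA3 moves phospholipid into the lamellar body, and its loss in newborns causes surfactant deficiency. In A549 its unnormalized signal was 462.4 and 262.1 in the control arrays 1 and 2, 474.0 and 240.5 at 1 h, and 541.0 and 197.8 at 6 h. In BEAS-2B it was 82.5 and 90.7 in the controls, 71.2 and 115.2 at 1 h, and 65.4 and 78.4 at 6 h. Every A549 array was brighter than every BEAS-2B array, and in BEAS-2B the 1 h array number 2 alone was detected. On the log2 scale the mean was 7.96 ± 0.51 (SD, n = 6 arrays) in A549 and 4.96 ± 0.40 (SD, n = 6 arrays) in BEAS-2B. The untreated difference was -2.97 (SE 0.44, adjusted p = 0.000795, limma). Neither BEAS-2B control array detected ABCA3, so its mean signal was at least 6.55-fold lower there, a bound taken against the dimmest detected probe. This bound, like the others given here, leaves out the spread between arrays. The 95% interval of the untreated difference ran from -3.94 to -1.99. Averaged over the conditions the fitted difference was -3.00 (SE 0.26, adjusted p = 4.07e-06, limma). It is taken against BEAS-2B levels that were detected on 1 of 6 arrays, and with the undetected arrays set to their dimmest detected probe the signal was at least 6.16-fold lower. In the authors' normalized matrix, where no background is subtracted, the untreated difference was -1.81 and still called (adjusted p = 0.00245, limma), with a bound of at least 3.19-fold.

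The A549 arrays split by number at ABCA3. Arrays numbered 1 read 8.27, 8.40 and 8.56 in control, 1 h and 6 h, and arrays numbered 2 read 7.64, 7.40 and 7.47 (log2). Number 1 was higher in all 3 conditions, by 0.62, 1.00 and 1.09. Over all probes 1.82% lay as far apart between the A549 numbers on average, and the median absolute distance was 0.17. With number 1 alone kept in A549 the untreated difference of ABCA3 was -3.28, at least 8.12-fold, and with number 2 alone -2.65, at least 5.28-fold (adjusted p = 0.00576 and 0.0135, limma). These fits hold 1 A549 array in each group, so their p-values rest on the spread of the BEAS-2B arrays, where ABCA3 was near background, and assume that A549 varies alike. The numbers also go with chip position and, in A549, with the summed unnormalized signal of the general epithelial markers EPCAM, CDH1, KRT8, KRT18 and KRT19. This sum was 13550 to 15010 on the A549 arrays numbered 1 and 6371 to 7503 on those numbered 2. KRT8 was the brightest of the markers (mean log2 12.56), so the sum does not describe each of them. In BEAS-2B the sum ran the other way, 5182 to 7314 on number 1 and 7960 to 9543 on number 2. The part of chip position and of these markers in the ABCA3 split was not tested.

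LAMP3 is a lysosomal membrane glycoprotein that marks lamellar bodies in type II cells. It is also a marker of mature dendritic cells and is induced by interferon in many cell types. Probe ILMN_2170814 had unnormalized signals of 1621 and 355.9 in the BEAS-2B control arrays 1 and 2, 1475 and 370.3 at 1 h, and 932.5 and 286.5 at 6 h. In A549 all 6 arrays lay between 68.7 and 97.6, and 1 of them was detected, 1 h number 2, at a detection p of 0.04805. The lines did not overlap. The untreated difference was 4.69 (SE 0.96, adjusted p = 0.00526, limma). Neither A549 control array detected this probe, so its mean signal was at least 19.5-fold higher in untreated BEAS-2B. This bound leaves out the spread between arrays, and the 95% interval of the difference ran from 2.57 to 6.81 (5.92-fold to 112-fold). The bound holds for this probe and not for the gene. The other LAMP3 probe, detected in A549 as well, gave 3.96-fold in untreated cells and was not called. The bound depends on the processing and on the array: it was 8.44-fold in the authors' normalized matrix (difference 3.33, adjusted p = 0.0183, limma), and 49.2-fold or 7.71-fold with BEAS-2B control number 1 or 2 alone. Averaged over the conditions the fitted difference was 4.51 (SE 0.56, adjusted p = 6.48e-05, limma). It is taken against A549 levels detected on 1 of 6 arrays. With the undetected arrays set to their dimmest detected probe, the signal at this probe was at least 17.5-fold higher (7.66-fold in the matrix). The other LAMP3 probe gave 3.68-fold over the conditions.

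The second LAMP3 probe, ILMN_2170813, gave the same direction at a smaller size. It was detected on all 12 arrays, with log2 levels of 5.64 to 6.31 in A549 and of 6.75 to 9.06 in BEAS-2B, and the lines did not overlap. Averaged over the conditions the difference was 1.88 (SE 0.45, adjusted p = 0.00556, limma), and the untreated difference of 1.99 missed the threshold (SE 0.78, adjusted p = 0.0944, limma). In A549 this LAMP3 probe was detected throughout while ILMN_2170814 was not, so the 2 probes disagree on whether A549 expresses LAMP3.

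LPCAT1 adds saturated acyl chains to lysophosphatidylcholine, a step in making dipalmitoylphosphatidylcholine, the main lipid of surfactant, and it is expressed in many epithelia. Its log2 levels in A549 were 8.22 and 8.26 in the controls, 7.87 and 7.96 at 1 h, and 8.10 and 8.44 at 6 h. In BEAS-2B they were 8.06 and 8.12 in the controls, 7.86 and 8.19 at 1 h, and 7.87 and 7.77 at 6 h. The lines overlapped. The untreated difference of LPCAT1 was -0.15 (SE 0.20, adjusted p = 0.67, limma), with a 95% interval from -0.59 to 0.30. Averaged over the conditions it was -0.16 with an interval from -0.42 to 0.09, that is between 0.748-fold and 1.07-fold in BEAS-2B relative to A549. The other 3 probes tested, near background, had averaged differences of -0.30 (SFTPD), 0.03 (SFTPB) and 0.00 (SLC34A2), and none was called.

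**Figure D2:**
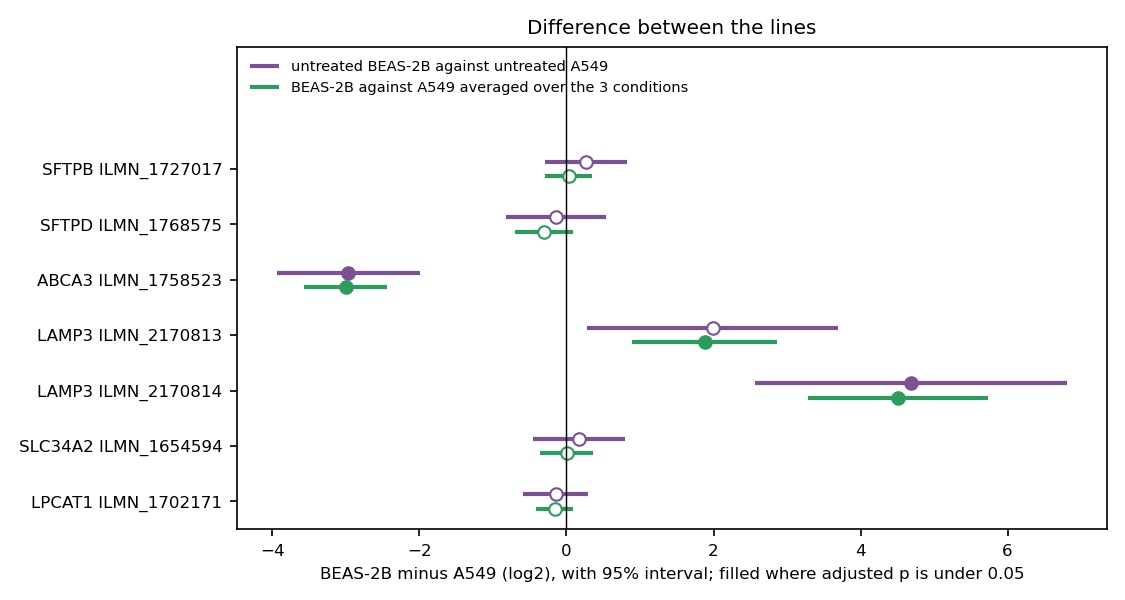
BEAS-2B minus A549 (log2) for the 7 tested member probes, with 95% intervals, for the untreated arrays (purple) and averaged over the 3 conditions (green). Filled points passed an adjusted p of 0.05. ABCA3 lies near -3.00, LAMP3 ILMN_2170814 at 4.69 and 4.51, both against a line in which the probe was detected on 1 of 6 arrays, and the interval of LPCAT1 spans 0.

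Among the 7 member probes tested, the 6 arrays of 1 line lay apart from the 6 of the other at both LAMP3 probes and ABCA3. Of all probes tested, 29.1% do so. NAPSA lay apart as well, but it did not pass the filter, and its separation lies among levels mostly below detection.

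The BEAS-2B arrays split by number at LAMP3. At ILMN_2170814 the arrays numbered 1 read 10.84, 10.95 and 10.03 in control, 1 h and 6 h, and those numbered 2 read 8.17, 8.22 and 7.93 (log2). Number 1 was higher by 2.68, 2.73 and 2.09, a mean of 2.50 or 5.65-fold, and 0.347% of probes lay as far apart. At ILMN_2170813 the same differences were 2.09, 2.16 and 1.79, and 0.568% of probes lay as far apart. In A549 the numbers overlapped at both LAMP3 probes.

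The size of the LAMP3 line difference depends on which BEAS-2B arrays are used. With BEAS-2B arrays numbered 1 alone, the untreated difference at ILMN_2170814 was 6.03, and with those numbered 2 alone 3.35 (adjusted p = 1.56e-05 and 0.000295, limma). Leaving out BEAS-2B control number 1 or 2 alone gave the same 3.35 and 6.03. With ILMN_2170813 the values were 3.03 with number 1 and 0.94 with number 2 (adjusted p = 0.000152 and 0.0338, limma), where the fit with all arrays gave 1.99 and no call. These fits hold 1 BEAS-2B array in each group, so their p-values rest on the spread of the A549 arrays, which at ILMN_2170814 lay near background, and leave out the spread between the BEAS-2B numbers. They give sizes and do not test whether the direction holds across BEAS-2B arrays. Where the A549 arrays of 1 number were left out instead, the difference at ILMN_2170814 was 4.51 or 4.87 and no longer called (adjusted p = 0.122 and 0.105, limma), where the BEAS-2B arrays alone set the spread.

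Interferon-stimulated genes split the same arrays. Of a list of 20, 19 were measured, and this list was added after the data were seen. On BEAS-2B arrays numbered 1 all 19 were higher than on those numbered 2 in each of the 3 conditions, with a median difference of 4.17 in control, 3.93 at 1 h and 3.76 at 6 h. In A549 the medians were 0.10, 0.02 and 0.46, with 11, 12 and 13 of 19 higher on number 1. MX1, an antiviral GTPase, read 14.48, 14.49 and 14.10 on the BEAS-2B arrays numbered 1 and 10.32, 10.56 and 9.87 on those numbered 2. In untreated cells 5 of the 19 were called higher in BEAS-2B and 0 lower, where 10.9% of all probes were called higher, and averaged over the conditions 15 of 19 were higher and 0 lower, where 21.6% were. The part of these genes in the LAMP3 level was not tested. Of the markers of blood cells, PTPRC and CD3E were detected on none of the 12 arrays, MS4A1 on 1 A549 and 2 BEAS-2B arrays, and CD14 and CD68, which epithelial lines can also express, on all 12. The summed signal of these 5 markers was 1562 to 1834 on the BEAS-2B arrays numbered 1 and 2353 to 2635 on those numbered 2, and their part in the LAMP3 level was not tested. The endothelial markers PECAM1, VWF and CDH5 were detected on no array.

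**Figure D3:**
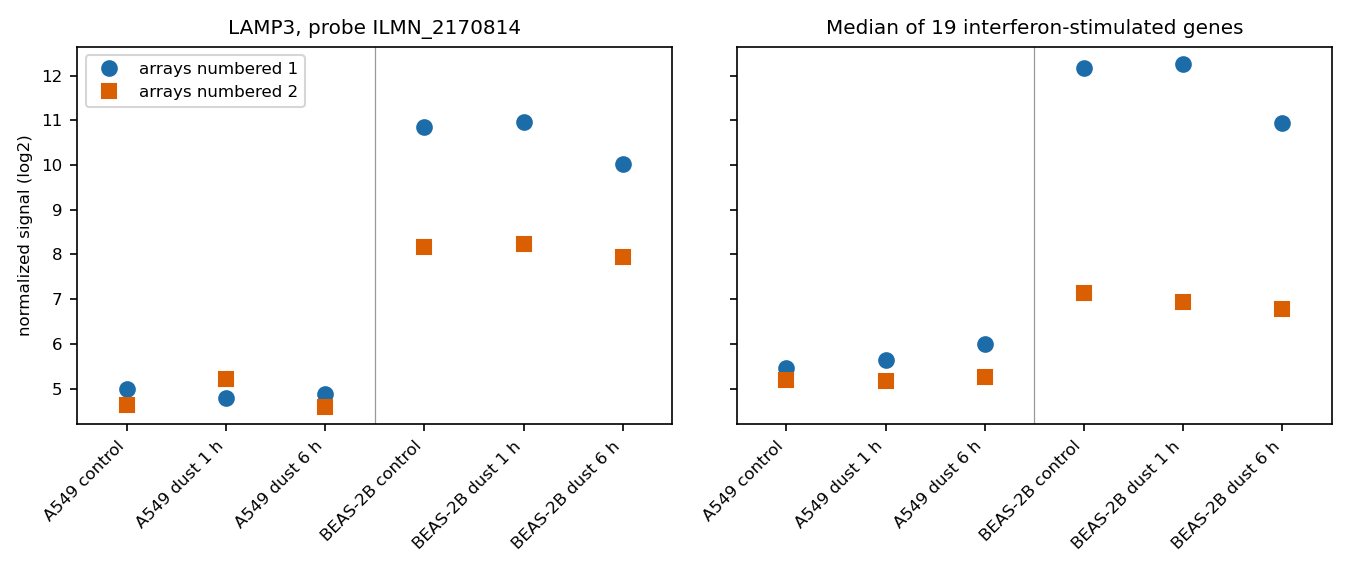
Normalized signal (log2) of LAMP3 ILMN_2170814 (left) and the median of 19 interferon-stimulated genes (right) on each of the 12 arrays, by group, with arrays numbered 1 as circles and those numbered 2 as squares. In BEAS-2B the arrays numbered 1 stand above those numbered 2 in both panels. In A549 they do so for the interferon-stimulated genes (5.46, 5.63 and 5.99 against 5.20, 5.17 and 5.26) but do not separate at LAMP3.

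The genes whose profiles over the 12 arrays were most like those of ABCA3 and LAMP3 were found by the root mean square difference of centred log2 values among 13029 named genes. For ABCA3 they were ALDH2, a mitochondrial aldehyde dehydrogenase (0.30), SLC51B, a subunit of a bile acid exporter (0.31), and NR5A2, a nuclear receptor (0.32), against a median of 1.58 over all genes. ALDH2 read 9.77 to 9.97 on A549 arrays numbered 1, 9.04 to 9.35 on those numbered 2 and 5.98 to 6.87 in BEAS-2B, so it shares the split by number with ABCA3. For LAMP3 ILMN_2170813 they were DHX58, a RIG-I-like receptor (0.23), SP100, a nuclear body protein (0.28), and PMAIP1, a pro-apoptotic BH3-only protein (0.28), against a median of 1.23. For LAMP3 ILMN_2170814 they were UBA7, the activating enzyme for ISG15 (0.38), IFIH1, a sensor of double-stranded RNA (0.40), and IRF7, a transcription factor of the interferon response (0.42), against 2.45. IFIH1 read 10.22 to 11.50 on BEAS-2B arrays numbered 1, 7.09 to 7.78 on those numbered 2 and 4.60 to 5.06 in A549. The likeness rests on 12 arrays that share 1 chip and carries no test.

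The next comparisons asked what the dust extract changed within each line. No member probe was called among 7 in any of them. The shares of all probes called were 0.0858% in A549 at 1 h, 0.00409% in A549 at 6 h, 0.114% in BEAS-2B at 1 h and 0.0613% in BEAS-2B at 6 h. Between 6 h and 1 h, 0 of 7 were called where 0.0327% of all probes in A549 and 0.0531% in BEAS-2B were. The difference between the lines in the response was called at 0 of 7 members at 1 h, where 0% of all probes were, and at 0 of 7 at 6 h, where 0.00817% were. None of these 56 member values had an unadjusted p under 0.05 (limma), the lowest being 0.108 for LPCAT1 in A549 between 1 h and 6 h. With the array number as a block within each line, 0 of 7 members were called in each of these comparisons as well. The shares of all probes called were then 0.335% and 0.298% in A549 at 1 h and 6 h, and 0.523% and 0.584% in BEAS-2B. They were 0.274% in A549 and 0.699% in BEAS-2B for 6 h against 1 h, and 0.0368% and 0.106% for the difference between the lines at 1 h and 6 h. The lowest adjusted p among the members was then 0.315 (LAMP3 ILMN_2170814 in BEAS-2B, 6 h against 1 h, limma). In that fit 4 of the 56 values had an unadjusted 95% interval below 0. The share of all probes with such an interval was not counted, so no result about the members is drawn from these 4. In BEAS-2B these were LAMP3 ILMN_2170814 at 6 h against control and against 1 h, and ABCA3 at 6 h against 1 h. In A549 it was LAMP3 ILMN_2170813 at 6 h against 1 h. The ABCA3 value rests on 1 detected array, 1 h number 2.

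The member changes against control ran from -0.32 to 0.33 in A549 at 1 h, from -0.14 to 0.06 in A549 at 6 h, from -0.36 to 0.21 in BEAS-2B at 1 h and from -0.52 to -0.14 in BEAS-2B at 6 h (log2). In BEAS-2B at 6 h all 7 values were below 0, with a median of -0.30 against -0.01 over all probes. These 7 share the same 4 arrays, 2 are probes of 1 gene, and none passed the test. The tested probes of SFTPB, SFTPD, ABCA3 and SLC34A2 were detected on neither BEAS-2B 6 h array and on at most 1 control array. Their signs thus rest on levels near background.

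LPCAT1 had the narrowest intervals. In A549 its change was -0.32 at 1 h (95% interval -0.77 to 0.12) and 0.03 at 6 h (-0.41 to 0.48). In BEAS-2B it was -0.07 at 1 h (-0.51 to 0.37) and -0.27 at 6 h (-0.71 to 0.17). Both dust arrays lay below both controls at 1 h in A549 and at 6 h in BEAS-2B, a separation that 27.4% and 31.8% of all probes showed in those comparisons (32.1% in A549 at 6 h and 25.7% in BEAS-2B at 1 h).

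ABCA3 differed from its control by -0.05 in A549 at 1 h and by 0.06 at 6 h, neither called, with 95% intervals of -1.03 to 0.92 and -0.92 to 1.04. Within the numbers its A549 changes at 6 h were 0.29 on number 1 and -0.18 on number 2. In BEAS-2B, where ABCA3 was mostly not detected, the changes were 0.21 and -0.31. At 6 h both dust arrays lay below both controls, a separation that 31.8% of all probes showed. No BEAS-2B control or 6 h array detected ABCA3, so these levels have no order.

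The difference of LAMP3 ILMN_2170814 from its control in BEAS-2B was 0.08 at 1 h and -0.52 at 6 h, neither called. The split by number makes its interval wide, from -2.65 to 1.60 at 6 h without the block and from -1.05 to -0.003 with the number as a block (adjusted p = 0.394 with the block, limma). Within the numbers the 6 h change was -0.82 on number 1 and -0.23 on number 2. At ILMN_2170813 it was -0.36 and -0.06. The 19 interferon-stimulated genes had a median 6 h change of -1.13 on BEAS-2B number 1, where all 19 were lower, and of -0.18 on number 2, where 13 were lower. In A549 at 1 h, both dust arrays of LAMP3 ILMN_2170813 lay above both controls (6.10 and 6.31 against 5.82 and 5.92), a change of 0.33 that was not called. Dust and control arrays lay apart at 27.4% of all probes there, and at ILMN_2170814 they overlapped.

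**Figure D4:**
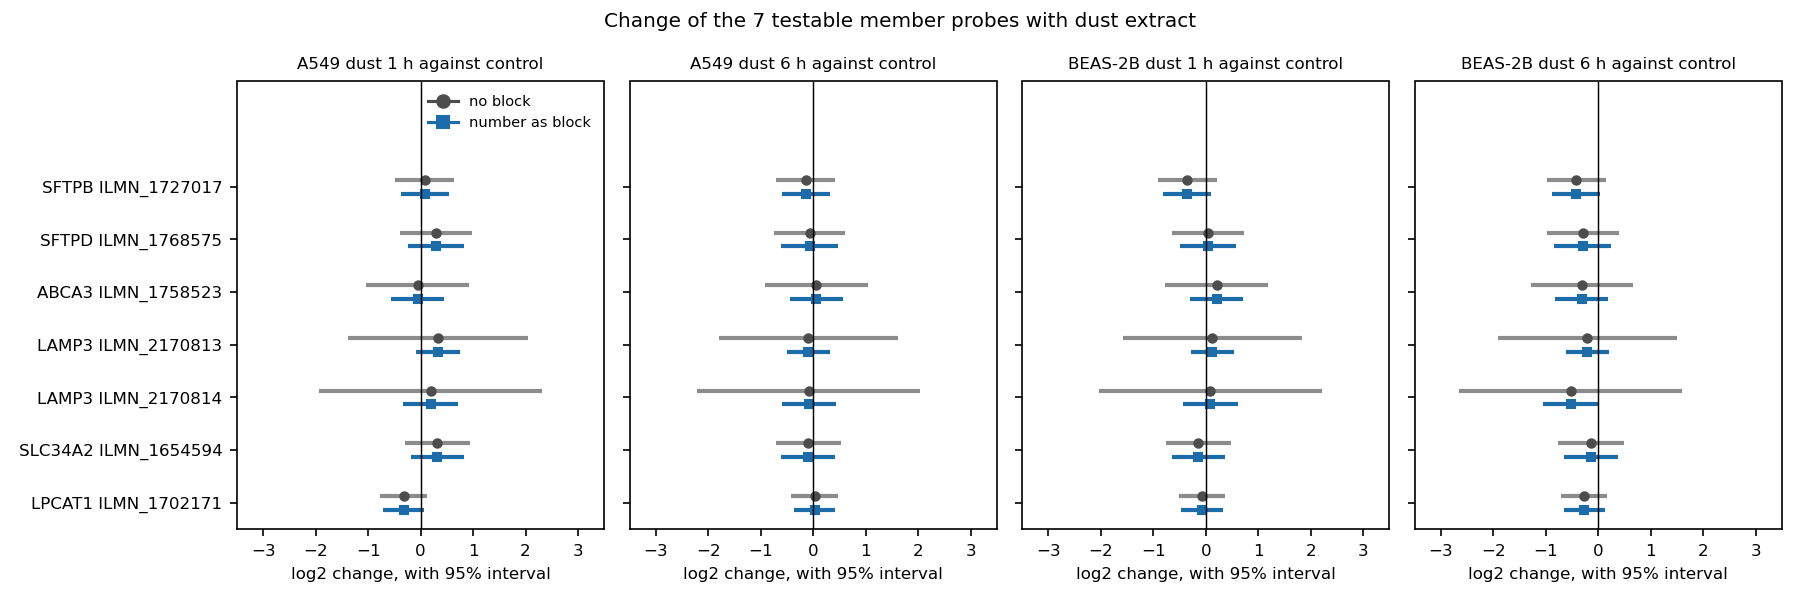
Change with dust extract against control (log2) for the 7 tested member probes in each line and at each time, with 95% intervals, without a block (grey circles) and with the array number as a block (blue squares). All 28 changes lie between -0.52 and 0.33, and the intervals of both LAMP3 probes and ABCA3 narrow with the block.

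Other genes of the type II programme and of its machinery were counted in 5 lists. Of 17 other surfactant and type II genes on the array, 10 were detected nowhere and 7 passed the filter, where 24467 of all 47320 probes passed. In untreated cells 0 of these 7 were higher and 2 lower in BEAS-2B, where 10.9% of all probes tested were higher and 11.5% lower. ETV5, a factor that maintains type II identity, differed by -2.09, and the kinase gene LRRK2, which neither BEAS-2B control array detected, was at least 1.57-fold lower. Averaged over the conditions 2 of 7 were higher, MUC1 and CHI3L1, and the same 2 lower, where 21.6% of all probes were higher and 21.1% lower. SFTPA1, the second collectin, was detected on no array of either line.

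Among the transcription factors of the distal lung, 11 of 13 passed, and in untreated cells 4 were lower and 0 higher in BEAS-2B, against the same 11.5% and 10.9% of all probes. Averaged over the conditions 5 were lower and 1 was higher (CEBPD, by 1.01), where 21.1% of all probes were lower and 21.6% higher. FOXA2, which acts with NKX2-1 at surfactant genes, differed by -4.52 (SE 0.28, adjusted p = 1.36e-06, limma), and its relative FOXA1 by -3.36. CEBPA, a factor of type II maturation that 1 of the 2 BEAS-2B control arrays detected, differed by -2.14, and SREBF1, which drives fatty acid synthesis, by -1.28. Their median difference over the 11 was -0.58, against 0.02 over all probes. ABCA3 and these 4 factors were thus higher in A549, while CEBPD was higher in BEAS-2B on average. NKX2-1 was detected in neither line, and the part of any of these factors in the ABCA3 level was not tested.

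Genes of phospholipid and sterol supply were mixed. Of 21 that passed, 1 was higher and 3 lower in untreated BEAS-2B, against 10.9% and 11.5% of all probes: the acyltransferase LPCAT2 differed by 1.02, the fatty acid binding protein FABP5 by -2.28, the choline phosphotransferase CHPT1 by -1.04 and the acetyl-CoA carboxylase ACACA by -0.97. Of 17 genes of lamellar bodies and secretion, 5 were higher and 2 lower, against the same shares of all probes. The lysosomal LAMP1 and LAMP2, relatives of LAMP3, differed by 1.42 and 0.77, the SNARE proteins VAMP8 and STX3 by 1.87 and 1.17, and NPC2, a sterol carrier, by 0.97. The sterol transporter ABCA1, a relative of ABCA3, and the proton pump subunit ATP6V0A1 differed by -1.05 and -1.06. LAMP1 and LAMP2 are thus higher in the same line as LAMP3, and ABCA1 is lower in the same line as ABCA3.

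Of 5 alveolar type I genes that passed, 2 were higher and 2 lower in untreated BEAS-2B, where 10.9% of all probes were higher and 11.5% lower. PDPN, a surface mucin-type protein that neither A549 control array detected, was at least 5.03-fold higher. CAV1, the caveolar coat protein, differed by 1.04, IGFBP2, which 1 BEAS-2B control array detected, by -2.07, and GPRC5A by -1.80. AGER, AQP5 and CLIC5 of the type I cell were detected on no array. Of the 4 airway basal markers on the array, the keratin KRT5 was detected on all 6 BEAS-2B and 0 A549 arrays, KRT14 on 3 and 0, KRT15 on 2 and 1, and NGFR on none. Neither line thus carried the defining type II set, and A549 differed from BEAS-2B within it at ABCA3 and, in the opposite direction, at LAMP3. No gene of these 5 lists was called with dust extract in either line by the model without a block.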

How the data were processed

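The arrays measured RNA of 2 lines under 3 conditions. Probe intensity values from GenomeStudio 2011.1 (submitters' processing notes) were deposited unnormalized, per the file headers, and their background was not subtracted. Detection p-values for each probe and array were deposited beside them, in steps of 1 in 770. A matrix of linear intensity values, quantile normalized as far as its values show, was also deposited. Gene names come from the probe table of the platform, and 30073 of 30112 probes with 1 symbol were found by gene number in the RefSeq table. The members and all gene lists were chosen with earlier results of these data known.

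With R 4.3.3 and limma 3.58.1, signals were background corrected, quantile normalized and put on the log2 scale by neqc with an offset of 16, the negative controls being inferred from the detection p-values. A probe was tested where its detection p was under 0.05 on 2 or more of the 12 arrays, and 24467 probes were fitted in 1 model with a mean for each of 6 groups (6 residual and 4.79 prior degrees of freedom). Each probe's variance is shared by all groups, so the spread in 1 line enters the p-values of the other. Benjamini-Hochberg adjustment was done over all probes in each of 10 comparisons, and a probe was called at an adjusted p under 0.05. All 13 member probes are named. From the lists, called genes are named, at most 6 for a list and comparison, and the other genes named from the lists, among them the cell type markers and SFTPA1, were singled out after their values were seen.

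The arrays detected 17730 to 19453 probes each (37.5% to 41.1%), with a median signal of 79.5 to 95.0 and replicate correlations of 0.979 to 0.981 in A549 and 0.962 to 0.970 in BEAS-2B. The number of arrays limits the precision. Deviations from the group means correlated between arrays of the same number by 0.402 to 0.467 within A549 and by 0.533 to 0.649 within BEAS-2B, and by -0.05 to 0.05 between lines, so the numbers pair arrays within a line. This comes from the data and not from the labels. A block for the number, within each line, was therefore fitted as an alternative, beside other normalizations, filters, 1 probe per gene, each line alone and each array left out. The procedure was tested on simulated data.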

Additional observations from a re-analysis of the deposited data

How the results depend on the processing

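In 24 alternatives, counting each left-out array, 1552 single member values were recomputed. With the replicate block, 0 members were called in the dust comparisons, as without it, and with a block across lines 3 members were called between the untreated lines (2 without), since LAMP3 ILMN_2170813 passed at an adjusted p of 0.0302 (limma). No called value changed sign, 4 lost and 4 gained their call, and 115 that were called in neither setting had the opposite sign. In the 12 fits that left out 1 array, the untreated difference of ABCA3 ran from -3.28 to -2.65 and that of LAMP3 ILMN_2170814 from 3.35 to 6.03, the averaged differences from -3.18 to -2.82 for ABCA3, from 1.52 to 2.24 for LAMP3 ILMN_2170813 and from 4.05 to 4.96 for ILMN_2170814, and all 5 kept their call. LAMP3 ILMN_2170813 also passed between the untreated lines without BEAS-2B control replicate 2 (3.03, adjusted p = 0.026, limma).

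Fits chosen after seeing the data kept the arrays of 1 number in 1 line. With A549 number 1 or number 2 alone, 1 member probe was called between the untreated lines in each fit, and the averaged difference of LAMP3 ILMN_2170813 was 1.88 or 1.87 and missed the threshold (adjusted p = 0.0924 and 0.0947, limma). If detection on any 1 array was enough, 9 member probes counted as detected in A549 and 7 in BEAS-2B, against 4 and 3. The share of all probes under that rule was not counted. The limits are 2 arrays in each group, levels of SFTPB, SFTPC, SFTPD, NAPSA, SLC34A2 and NKX2-1 near or below the dimmest detected probe, where normalized values compress any difference, and a chip on which line and position go together.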

Other observations

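With the array number as a block within each line, some genes of the lists changed with dust extract that did not pass without it. GPRC5A, a receptor-like gene of the distal lung, rose in A549 at 6 h by 1.84 (adjusted p = 0.00736, limma) and in BEAS-2B at 6 h by 1.48 (adjusted p = 0.0203). In BEAS-2B, FOXA1 rose by 1.73 and SOX9, a factor of distal lung progenitors, by 2.50 at 1 h (adjusted p = 0.0101 and 0.0168). At 6 h in BEAS-2B, FOXA2 rose by 1.51 (adjusted p = 0.00933) and ETV5 by 1.08 (adjusted p = 0.0317). Of all probes 0.298% were called in A549 at 6 h, 0.523% in BEAS-2B at 1 h and 0.584% in BEAS-2B at 6 h with the block. The 2 called members of the line comparison, ABCA3 and LAMP3, showed no called change in those fits.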
